A study of Homo sapiens with 8 samples.

Results

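The transcriptome of MM.1S cells treated with bortezomib plus FeAc was compared with that of MM.1S cells treated with bortezomib alone. MM.1S is an established human multiple myeloma (MM) cell line, bortezomib is a proteasome inhibitor used against MM, and FeAc is the compound the study used to supply iron. Each group held 2 samples collected after 12 h, so the comparison rests on 4 of the 8 samples of the series, and the other 4 received vehicle or FeAc without bortezomib. All 4 groups were labelled wild-type, their replicates were described as biological, and neither the labels nor the methods read here state the bortezomib dose used for sequencing. The design of 4 groups asks how added iron acts on MM cells with and without the drug. Values are in TPM, a level corrected for transcript length and scaled to a common total, which keeps no record of sequencing depth. The files list 60671 genes, of which 33350 had no signal in these 4 samples. The comparison was made over the 13865 genes whose mean reached 1 TPM for one treatment or the other, compared as log2(TPM + 1).

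Cells sense iron through the iron regulatory proteins, which bind hairpins called iron-responsive elements in messenger RNA. Such hairpins in the 3′ end of TFRC mRNA, the transferrin receptor that imports iron, keep the mRNA stable when iron is scarce, and a hairpin in the 5′ end of ferritin mRNA blocks translation under the same condition. Cells sense sterols through INSIG1, which holds the SREBP transcription factors in the endoplasmic reticulum, and through the LXR receptors, which bind oxysterols and raise sterol exporters such as ABCG1. SREBP2 raises the genes of cholesterol synthesis and uptake when sterols are low. Plasma cells such as MM cells make much secreted protein and depend on the proteasome, and its inhibition raises heat shock chaperones and HMOX1.

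The TFRC hairpins are shown because TFRC differed most among the iron genes tested, and those of ferritin because FTH1 and FTL share the same control. A search of GENCODE 29 transcripts for a C, a stem of 5 base pairs (G with T allowed) and a loop of 6 bases, CAGTG then A, C or T, found 4 sites in TFRC and 1 each in FTH1 and FTL. Capitals mark the loop, and positions are on GRCh38.
TFRC 3′ UTR, site 1, chr3:196050985-196051001, minus strand: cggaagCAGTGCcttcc
TFRC 3′ UTR, site 2, chr3:196050581-196050597, minus strand: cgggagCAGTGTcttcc
TFRC 3′ UTR, site 3, chr3:196050516-196050532, minus strand: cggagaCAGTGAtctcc
TFRC 3′ UTR, site 4, chr3:196050469-196050485, minus strand: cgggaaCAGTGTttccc
FTH1 5′ UTR, chr11:61967580-61967596, minus strand: cttcaaCAGTGCttgga
FTL 5′ UTR, chr19:48965341-48965357, plus strand: cttcaaCAGTGTttgga
The same letters were found at least once in 214 of 19669 protein-coding genes (1.09%) and at least 3 times in 2 genes.

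The promoters of INSIG1 and MSMO1 are shown because these were the sterol genes with the smallest p. RefSeq gives the 250 bases before their start sites on GRCh38.p14, and capitals mark CCAAT on either strand, the usual NF-Y motif, and CACGTG, an E-box.
INSIG1 promoter, chr7:155297628-155297877, plus strand: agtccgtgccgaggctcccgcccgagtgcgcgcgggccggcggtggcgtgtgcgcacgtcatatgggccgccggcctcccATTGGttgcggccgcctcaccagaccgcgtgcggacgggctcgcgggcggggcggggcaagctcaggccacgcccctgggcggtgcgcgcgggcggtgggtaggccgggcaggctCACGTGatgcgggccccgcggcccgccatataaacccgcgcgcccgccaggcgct
MSMO1 promoter, chr4:165327419-165327668, plus strand: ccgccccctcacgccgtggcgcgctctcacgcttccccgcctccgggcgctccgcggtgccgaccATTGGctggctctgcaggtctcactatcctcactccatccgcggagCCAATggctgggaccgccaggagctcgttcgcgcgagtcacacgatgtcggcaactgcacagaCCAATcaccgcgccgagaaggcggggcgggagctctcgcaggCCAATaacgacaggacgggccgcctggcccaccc
The INSIG1 window holds 1 CCAAT, starting 170 bases before the start site, and 1 E-box, starting 55 bases before it. The MSMO1 window holds 4 CCAAT motifs, starting 185, 139, 76 and 34 bases before the start site. At least 1 CCAAT stood before 6 of the 7 tested mevalonate pathway genes with a RefSeq promoter, 8 of 10 from squalene to cholesterol, 6 of 7 in the LXR list and 6 of 13 (46.2%) in the list of SREBP control and sterol uptake that holds INSIG1, against 37.0% of all 27303 genes. The sterol regulatory motif TCACNCCAC, searched on both strands, was found in these windows of 0 of the 7, 0 of the 10, 0 of the 7 and 1 of the 13 genes, the last being SREBF2, and in 1.1% of all genes. A match of letters is not evidence of binding, and its absence here says nothing of the factor.

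The levels of defining markers matched the label of the cells. JCHAIN, the joining chain of immunoglobulin, was at 2323 to 3460 TPM, and TNFRSF17, the BCMA receptor of plasma cells, at 320.0 to 353.9 TPM in the 4 samples. SDC1, which encodes CD138, was at 129.8 and 159.9 TPM with bortezomib and at 69.1 and 181.8 TPM with bortezomib plus FeAc, and CD27 was listed at 0. The summed level of 10 T and NK cell markers was 2.17 to 4.10 TPM, that of 10 monocyte and granulocyte markers 9.36 to 13.4 TPM, that of 10 erythroid markers 9.72 to 22.4 TPM and that of 10 marrow stromal markers 7.55 to 10.9 TPM. CD3D, NKG7, MPO and LUM were listed at 0 in the 4 samples, but other members of these lists were not. HBD of the erythroid markers was at 5.87 to 16.8 TPM and CD68 of the monocyte and granulocyte markers at 7.23 to 11.1 TPM. COL1A1 of the stromal markers was at 3.02 to 4.89 TPM and GNLY of the T and NK cell markers at 1.27 to 3.02 TPM. CD38, a plasma cell marker, was at 7.49 to 18.4 TPM. In bulk RNA, fewer cells of a kind and less RNA per cell cannot be told apart.

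The 2 samples of bortezomib plus FeAc lay farther apart than those of the other groups. Among genes averaging 5 TPM or more in a group, 4.95% (463 of 9354) differed over 2-fold between its replicates, against 1.27% for bortezomib, 1.56% for vehicle and 1.62% for FeAc. The correlation of log2 values between its replicates was 0.957, the lowest of the 6 pairs among the 4 samples, and that between the bortezomib replicates was 0.973, the highest. Mitochondrially encoded genes took 2.99% of the TPM in its replicate 1 and 10.1% in its replicate 2, with 5.49% and 8.23% in the bortezomib samples between them.

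Several gene lists separated these replicates as a group. All 13 mitochondrially encoded mRNAs were lower in replicate 1 of bortezomib plus FeAc than in replicate 2, with a median difference of -1.73 on the log2 scale, and all 13 were also lower in bortezomib replicate 1 than in replicate 2, with a median of -0.53. Of 27 heat shock chaperones, 25 were higher in replicate 1 of bortezomib plus FeAc (median 0.85), as were 25 of 26 genes of the ATF4 stress and amino acid list (median 0.62) and 74 of 75 cytosolic ribosomal proteins (median 0.50). The bortezomib replicates were ordered the same way with smaller medians, in 24 of 27 chaperones (0.12), 24 of 26 ATF4 genes (0.29) and 69 of 75 ribosomal proteins (0.093). The median over all 13865 genes was -0.17. HSPA6, a chaperone made only under strong stress, was at 150.3 TPM in replicate 1 and 2.73 TPM in replicate 2, with 81.0 and 32.5 TPM in the bortezomib samples. HMOX1, which breaks down heme and releases its iron, was at 1663 and 339.0 TPM with bortezomib plus FeAc and at 544.5 and 319.8 TPM with bortezomib. ZFAND2A, an arsenite- and heat-induced partner of the proteasome, was at 1160 and 239.0 TPM with FeAc added and at 501.8 and 337.6 TPM without it. The groups overlapped for these 3 genes, and replicate 1 of bortezomib plus FeAc was the highest sample in each.

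**Figure D1:**
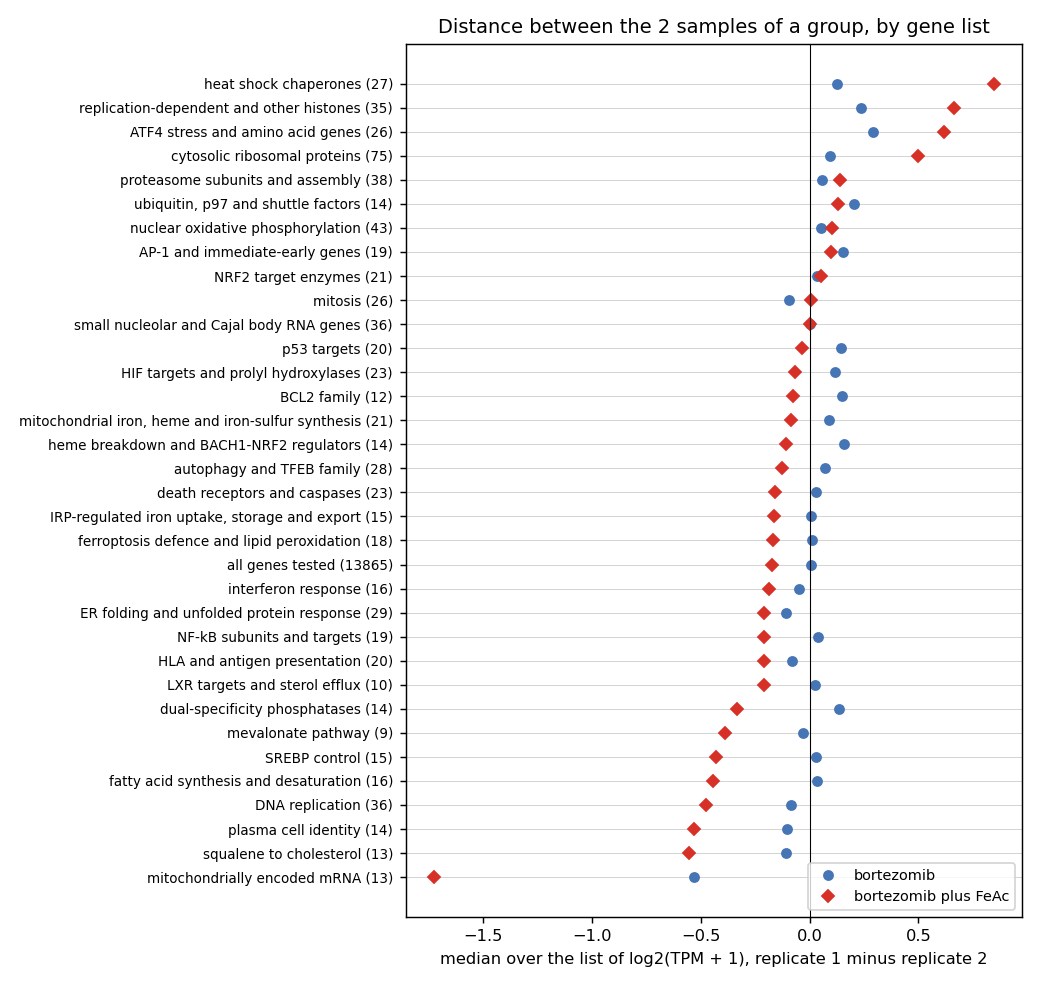
Median difference of log2(TPM + 1) between replicate 1 and replicate 2 (x axis) for each gene list with at least 9 genes tested (y axis, genes tested in brackets), in bortezomib (circles) and bortezomib plus FeAc (diamonds). Heat shock chaperones lie at 0.85 and mitochondrially encoded mRNAs at -1.73 for bortezomib plus FeAc, both farther from 0 than for bortezomib.

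Across the transcriptome, 1 gene was called higher with FeAc added (0.00721% of genes tested) and 0 were called lower (0%), where a call needed a limma-trend p below 0.05 after Benjamini-Hochberg adjustment and a change beyond 1.5-fold. With the p left unadjusted, 143 genes were higher (1.03%) and 111 lower (0.801%). Both samples with FeAc lay above both samples without it for 1229 genes (8.86%) and below both for 1820 genes (13.1%). With 2 samples per group, genes that do not differ also often fall into such an order. These counts therefore do not show how many genes changed, and a gene without overlap is not by that alone a changed gene. The median difference over all genes tested was -0.040 on the log2 scale. Without replicate 1 of bortezomib plus FeAc the unadjusted counts were 478 higher and 191 lower, without its replicate 2 they were 383 and 667, and without bortezomib replicate 1 or 2 the lower genes numbered 250 or 244. Leaving out any 1 of the 4 samples also ended the single call.

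**Figure D2:**
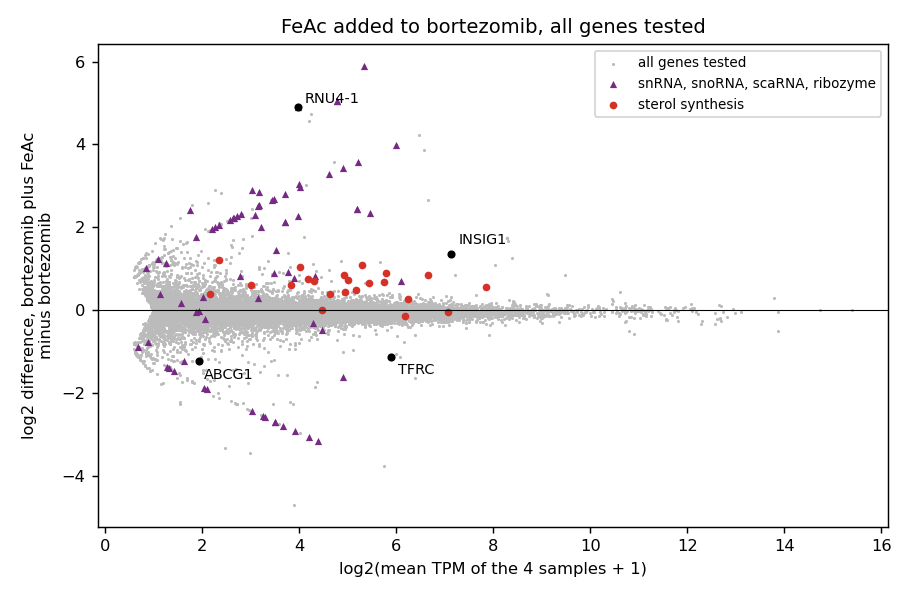
Each point is 1 of the 13865 genes tested, by its mean level (x axis, log2 of the mean TPM of the 4 samples plus 1) and its fitted log2 difference, bortezomib plus FeAc minus bortezomib (y axis). Sterol synthesis genes lie mostly above 0, TFRC and ABCG1 below it, and many of the points farthest from it are short non-coding RNAs (triangles).

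Most enzymes of cholesterol synthesis were higher in both samples with FeAc added. Of 22 such genes tested, 15 had both samples with FeAc above both samples with bortezomib alone, 0 were lower in this sense, and 9 passed the unadjusted threshold. This was 7 of 9 genes of the mevalonate pathway and 8 of 13 genes from squalene to cholesterol, where 8.86% of all genes were higher without overlap. The median differences were 0.65 and 0.62 on the log2 scale, beside -0.040 over all genes. Without replicate 2 of bortezomib plus FeAc these medians were 0.37 and 0.36, and without its replicate 1 they were 0.82 and 0.97. No gene of either list passed the adjusted test.

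In the mevalonate pathway, IDI1, which isomerises the isoprene unit, had the smallest p. IDI1 was at 38.9 and 36.4 TPM with bortezomib and at 75.8 and 67.1 TPM with bortezomib plus FeAc. Both samples with FeAc were higher, with a fitted ratio of 1.87 and a log2 difference of 0.91 (SE 0.15, n = 2 per group, unadjusted limma p of 0.00134, adjusted p of 0.883). HMGCS1, which makes HMG-CoA, was at 39.9 and 40.6 TPM and at 56.6 and 74.4 TPM, a log2 difference of 0.68 (SE 0.18). For these genes the groups did not overlap, and the bortezomib samples of HMGCS1 were almost equal. ACAT2, the thiolase that starts the pathway, showed a difference of 0.71, MVD 0.73, MVK 0.60 and FDPS, which makes farnesyl diphosphate, 0.56 on the log2 scale. PMVK and GGPS1, the latter leading to geranylgeranyl diphosphate rather than to sterols, had overlapping groups.

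In the steps from squalene to cholesterol, MSMO1, which removes the methyl groups at carbon 4 of lanosterol products, had the smallest p. MSMO1 was at 23.3 and 24.8 TPM with bortezomib and at 46.0 and 58.5 TPM with bortezomib plus FeAc. Its fitted ratio was 2.11 and its log2 difference 1.08 (SE 0.18, n = 2 per group, unadjusted limma p of 0.00119, adjusted p of 0.883). FDFT1, which joins farnesyl diphosphate into squalene, was at 72.4 and 69.6 TPM and, with FeAc, at 119.4 and 139.8 TPM, a log2 difference of 0.85 (SE 0.16). Both genes had the samples of each group close together and the groups well apart. SQLE, the squalene epoxidase, was at 1.76 and 2.27 TPM and, with FeAc, at 4.31 and 8.05 TPM, a log2 difference of 1.21 (SE 0.33). CYP51A1, the lanosterol demethylase, was at 18.8 and 21.8 TPM and at 28.3 and 48.7 TPM, a difference of 0.85 (SE 0.28). SC5D, HSD17B7 and NSDHL were higher without overlap by 0.62, 0.48 and 0.40 on the log2 scale.

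The other enzymes of this stretch overlapped between groups, and replicate 2 of bortezomib plus FeAc was the high sample in several of them. LSS, the lanosterol synthase, was at 23.2 and 24.5 TPM with bortezomib and at 21.3 and 49.2 TPM with FeAc added. DHCR7, which acts just before cholesterol, was at 11.4 and 11.5 TPM and at 11.5 and 34.0 TPM. EBP, TM7SF2 and LBR overlapped as well. Replicate 2 lay above replicate 1 of bortezomib plus FeAc in 17 of the 22 sterol synthesis genes. Over all 13865 genes tested, replicate 1 of that group was the higher in only 4647, so this order was not particular to sterol genes. Replicate 1 of that group was also the sample with the highest chaperones and the lowest mitochondrial share, whose part in the order of the replicates was not tested.

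**Figure D3:**
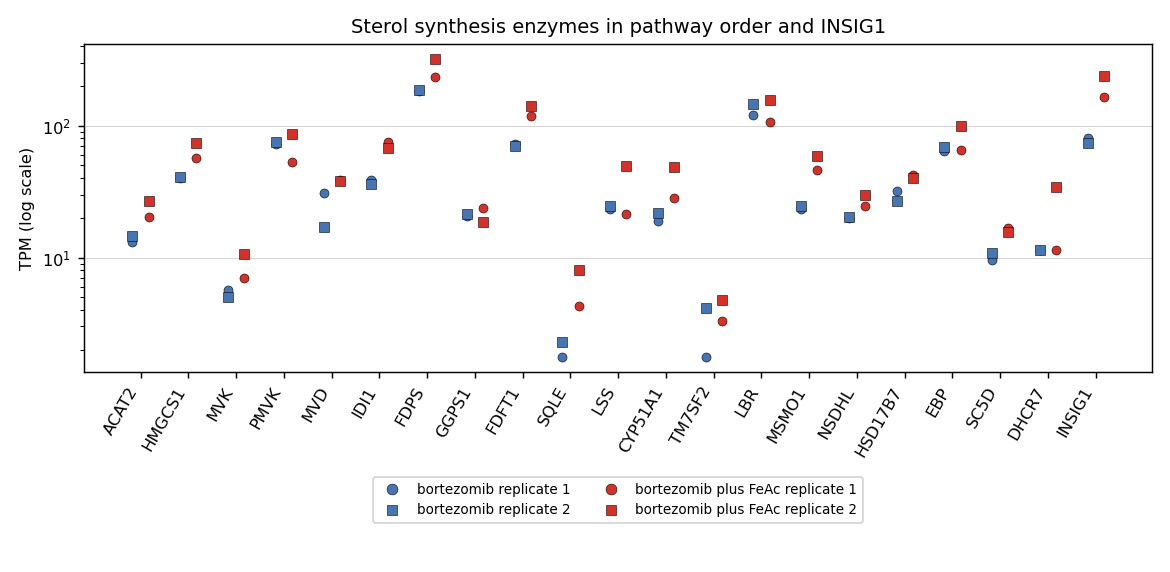
TPM on a log scale (y axis) of 20 of the 22 sterol synthesis genes in pathway order and INSIG1 (x axis), with 1 point per sample, bortezomib in blue and bortezomib plus FeAc in red, replicate 1 as circles and replicate 2 as squares. In 13 of the 20 enzymes plotted and in INSIG1 the red points lie above the blue ones, and PMVK, GGPS1, LSS, TM7SF2, LBR, EBP and DHCR7 overlap.

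Among the genes that control sterol supply, INSIG1, at chr7:155297776-155310235 on the plus strand of GRCh38, differed most. INSIG1 was at 80.3 and 73.3 TPM with bortezomib and at 166.3 and 236.1 TPM with bortezomib plus FeAc. Both samples with FeAc were over 2 times the bortezomib samples, with a fitted ratio of 2.56 and a log2 difference of 1.36 (SE 0.21, 95% interval 0.84 to 1.88, n = 2 per group, unadjusted limma p of 0.000807, adjusted p of 0.746). STARD4, a sterol carrier, showed 0.52 and NPC2, which moves cholesterol out of lysosomes, 0.33 on the log2 scale, both without overlap. SREBF2, which encodes SREBP2 itself, was at 43.8 and 41.9 TPM with bortezomib and at 41.9 and 76.3 TPM with FeAc added, and SREBF1 was at 12.9 and 19.7 TPM and at 6.55 and 21.4 TPM. The mRNA of both factors thus overlapped between groups. Of 15 genes of this list tested, 4 were higher without overlap (26.7%, beside 8.86% of all genes) and 0 lower, with a median of 0.059.

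Genes of fatty acid synthesis, which SREBP1 controls, gave a weaker picture. Of 16 tested, 2 were higher (12.5%, beside 8.86% of all genes) and 1 lower (6.25%, beside 13.1%) without overlap, with a median of 0.031. SCD, the desaturase that makes oleate, was at 13.4 and 15.2 TPM with bortezomib and at 17.9 and 46.8 TPM with FeAc added, a log2 difference of 0.98 (SE 0.43). FASN, the fatty acid synthase, was at 33.2 and 32.8 TPM and at 27.1 and 66.4 TPM, so that the bortezomib samples lay between those with FeAc.

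The list of LXR targets and sterol efflux genes lay on the other side. Besides targets it holds SOAT1 and the receptor genes NR1H2 and NR1H3. Of 10 tested, 0 were higher and 4 lower without overlap (13.1% of all genes were lower), with a median of -0.19, which was -0.36 without replicate 2 of bortezomib plus FeAc, -0.092 without its replicate 1 and -0.063 over the members averaging 5 TPM or more. ABCG1, the exporter of cholesterol to HDL, lies at chr21:42199689-42297244 on the plus strand of GRCh38. It was at 4.36 and 4.29 TPM with bortezomib and at 1.56 and 1.04 TPM with bortezomib plus FeAc. Both samples with FeAc were below both without it, with a fitted ratio of 0.429 and a log2 difference of -1.22 (SE 0.27, 95% interval -1.88 to -0.56, n = 2 per group, unadjusted limma p of 0.00441, adjusted p of 1). MYLIP, a ubiquitin ligase that limits lipoprotein uptake, was at 5.00 and 5.20 TPM and, with FeAc, at 2.05 and 2.53 TPM, a log2 difference of -0.89 (SE 0.24). NR1H3, which encodes LXR alpha, differed by -0.48 and SOAT1, which esterifies cholesterol, by -0.28. NR1H2, which encodes LXR beta, was at 55.7 and 48.0 TPM and at 51.6 and 53.2 TPM, with overlap, and ABCA1 and APOE had less than 1 TPM in both groups.

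Among the iron genes, TFRC, at chr3:196027183-196082189 on the minus strand of GRCh38, differed most. TFRC was at 65.6 and 94.2 TPM with bortezomib and at 27.8 and 44.5 TPM with bortezomib plus FeAc. Both samples with FeAc were below both without it, with a fitted ratio of 0.455 and a log2 difference of -1.14 (SE 0.29, 95% interval -1.85 to -0.43, n = 2 per group, unadjusted limma p of 0.0083, adjusted p of 1). FTL, the ferritin light chain, was at 13553 and 11272 TPM and, with FeAc, at 20357 and 11252 TPM, and FTH1, the heavy chain, at 387.8 and 297.1 TPM and at 433.0 and 307.8 TPM. Both ferritin genes overlapped between groups, and in each the highest sample was replicate 1 of bortezomib plus FeAc. Of 15 genes of iron uptake, storage and export tested, 3 were higher (20%, beside 8.86% of all genes) and 1 lower (6.67%, beside 13.1%) without overlap, with a median of -0.0032. The 3 were CYBRD1, which reduces iron, and ACO1 and IREB2, which encode the iron regulatory proteins, with log2 differences of 0.30, 0.23 and 0.13. CYBRD1 averaged 0.765 TPM with bortezomib and 1.2 TPM with FeAc added. It reached the minimum mean only through the samples with FeAc, so it could be counted only as higher. SLC40A1, the iron exporter ferroportin, had less than 1 TPM in both groups.

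Genes of iron use in mitochondria, of heme and of ferroptosis were less clear. Of 21 genes for mitochondrial iron, heme and iron-sulfur synthesis, 2 were higher (9.52%) and 4 lower (19%) without overlap, with a median of -0.032. Of all genes, 8.86% were higher and 13.1% lower in this sense. NFS1, the cysteine desulfurase of iron-sulfur synthesis, was at 14.1 and 17.8 TPM with bortezomib and at 21.6 and 23.1 TPM with FeAc added, a log2 difference of 0.47 (SE 0.19). Of 14 genes for heme breakdown and its regulators, 1 was higher and 0 lower. Of 18 genes of ferroptosis defence, 0 were higher and 3 lower (16.7%), with a median of -0.095. GPX4, the peroxidase that protects membrane lipids, was at 271.1 and 244.8 TPM and, with FeAc, at 220.3 and 226.5 TPM, a log2 difference of -0.21 (SE 0.15).

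Immediate-early genes were lower for the FOS pair but not for JUN. FOS was at 29.1 and 29.9 TPM with bortezomib and at 4.09 and 15.5 TPM with bortezomib plus FeAc, a log2 difference of -1.73 (SE 0.53, n = 2 per group, unadjusted limma p of 0.0186, adjusted p of 1). FOSB was at 2.38 and 3.81 TPM and, with FeAc, at 0.52 and 0.86 TPM, a log2 difference of -1.26 (SE 0.33). JUN, the partner of FOS in AP-1, was at 265.7 and 189.2 TPM and at 323.4 and 104.7 TPM, with the bortezomib samples between those with FeAc. Of 19 genes of this list tested, 2 were higher (10.5%, beside 8.86% of all genes) and 6 lower (31.6%, beside 13.1%) without overlap, with a median of -0.15. DUSP1, the phosphatase that turns off MAP kinases and an immediate-early gene itself, was at 96.6 and 72.1 TPM and, with FeAc, at 53.4 and 29.4 TPM, a log2 difference of -1.05 (SE 0.31). It was the 1 member of 14 dual-specificity phosphatases tested that was lower without overlap, and 0 were higher.

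Of the 19 NF-kB subunits and targets tested, 2 were higher (10.5%) and 3 lower (15.8%) without overlap, shares near the 8.86% and 13.1% of all genes, with a median of -0.030. The 3 lower genes were RGS1, CCL4 and CXCL10, and CCL3 was 1 of the 2 higher. RGS1, which damps chemokine receptor signals, was at 288.9 and 288.4 TPM with bortezomib and at 227.6 and 158.7 TPM with bortezomib plus FeAc, a log2 difference of -0.60 (SE 0.21). CCL4, a chemokine that draws immune cells, differed by -0.47 (SE 0.17) and CXCL10, a ligand of CXCR3, by -0.58 (SE 0.24). CCL4L2, a near-identical copy of CCL4 whose reads can be split with it, was at 19.1 and 14.9 TPM and at 8.82 and 9.57 TPM, a log2 difference of -0.81 (SE 0.20). CCL3, a related chemokine, was at 1253 and 1249 TPM with bortezomib and at 1817 and 1258 TPM with FeAc added, so it was higher in both samples, by a small margin in replicate 2.

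**Figure D4:**
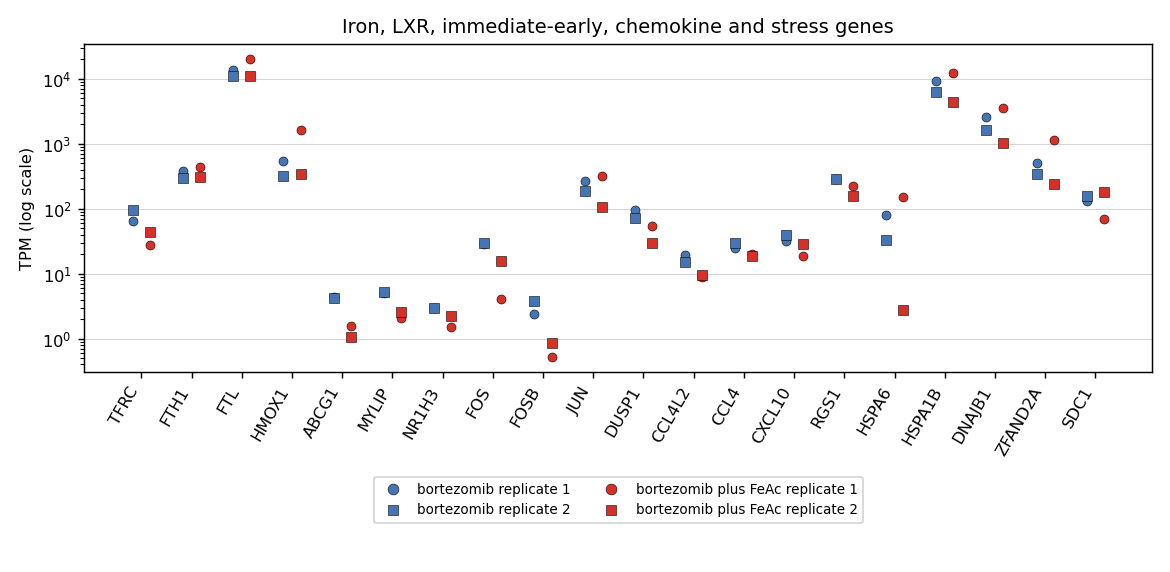
TPM on a log scale (y axis) of 20 named genes of iron handling, LXR targets, immediate-early genes, chemokines and stress (x axis), with 1 point per sample, bortezomib in blue and bortezomib plus FeAc in red, replicate 1 as circles and replicate 2 as squares. TFRC, ABCG1, MYLIP, FOS, FOSB and DUSP1 have both red points below both blue points, while the red points of HMOX1, HSPA6 and ZFAND2A lie far apart.

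Genes by which cells answer proteasome inhibition gave few groups without overlap. Among all genes tested, 8.86% were higher and 13.1% lower without overlap. Of 38 proteasome subunits and assembly factors, 0 were higher and 2 lower without overlap, and their log2 differences ran from -0.15 to 0.11 with a median of -0.044. Of 27 heat shock chaperones, 0 were higher and 2 lower, with log2 differences from -1.14 to 0.074 and a median of -0.13. This median averages replicates of bortezomib plus FeAc that lay a median of 0.85 apart, so it says little of a difference between the groups. HSPA1B, the inducible HSP70, was at 9422 and 6312 TPM with bortezomib and at 12243 and 4484 TPM with bortezomib plus FeAc, so that the groups overlapped, and its near-identical copy HSPA1A can share reads with it. Of 26 genes of the ATF4 list, 0 were higher and 0 lower. DDIT3, which encodes CHOP, was at 47.2 and 40.1 TPM and at 86.6 and 31.5 TPM. Of 29 genes of folding in the endoplasmic reticulum, 1 was higher and 4 lower with a median of -0.049, and of 21 NRF2 target enzymes, 0 were higher and 1 lower with a median of 0.0024. Of 14 genes of ubiquitin, p97 and shuttle factors, 0 were higher and 1 lower. SQSTM1, the autophagy receptor p62, was at 4383 and 3616 TPM and at 5968 and 3222 TPM, with overlap.

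Of 12 BCL2 family genes, 1 was higher and 4 lower without overlap, with a median of -0.15. The shares were 8.33% higher, beside 8.86% of all genes, and 33.3% lower, beside 13.1%. MCL1, the survival factor of plasma cells, was at 254.5 and 233.0 TPM with bortezomib and at 220.4 and 218.6 TPM with FeAc added, a log2 difference of -0.15 (SE 0.15). BCL2 was at 27.8 and 24.8 TPM and at 17.8 and 23.1 TPM, a difference of -0.36 (SE 0.19), and CFLAR, which blocks caspase-8, differed by -0.30 (SE 0.15). On the higher side were 3 genes of low level, each without overlap. Of these, BIK and APAF1 reached the minimum mean only through the samples with FeAc, so they could be counted only as higher. BIK, which promotes cell death, was at 0.40 and 0.30 TPM with bortezomib and at 1.03 and 1.23 TPM with FeAc added, a log2 difference of 0.66 (SE 0.33). APAF1, the scaffold of the apoptosome, differed by 0.59 (SE 0.32) and TIGAR, a p53 target that acts on sugar metabolism, by 0.58 (SE 0.31). Of 23 death receptors and caspases 1 was higher and 2 lower, of 20 p53 targets 2 were higher and 5 lower (25% lower), and of 14 plasma cell genes 0 were higher and 1 lower (7.14%), beside 13.1% of all genes. Of 36 DNA replication genes 2 were higher and 0 lower, and of 26 mitosis genes 1 was higher and 5 lower, with medians of -0.054 and -0.080. Of 20 genes of HLA and antigen presentation 0 were higher and 3 lower, of 43 nuclear genes of oxidative phosphorylation 1 and 4, of 28 autophagy genes 1 and 3, of 23 HIF genes 1 and 1, and of 16 interferon response genes 1 and 0. None of the 75 cytosolic ribosomal proteins, 13 mitochondrially encoded mRNAs or 26 ATF4 genes had groups that did not overlap.

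Among the 35 histone genes tested, 4 were higher (11.4%, beside 8.86% of all genes) and 2 lower (5.71%, beside 13.1%) without overlap. Their median was 0.18. Of the 4, H2BC13 and H2AC17 reached the minimum mean only through the samples with FeAc. H2AC8 was at 1.84 and 1.60 TPM with bortezomib and at 3.98 and 3.45 TPM with bortezomib plus FeAc, a log2 difference of 0.79 (SE 0.25). Most histone mRNAs lack a poly(A) tail, so their level in a library depends on how its RNA was selected. MT1X, a metallothionein that binds zinc and copper, was at 2.18 and 2.29 TPM and, with FeAc, at 11.6 and 3.89 TPM, a log2 difference of 1.28 (SE 0.46). It was the 1 gene of 4 metallothioneins and zinc exporters tested that was higher without overlap.

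The gene that passed the adjusted test was RNU4-1, which encodes the U4 small nuclear RNA of the spliceosome, at chr12:120293097-120293237 on the minus strand of GRCh38. Its sequence and that of RNU4-2, its neighbour, are shown because they are so alike that reads can be assigned to either. Both are 141 bases long and identical at 97.2% of positions, and the 4 bases that differ are in capitals.
RNU4-1: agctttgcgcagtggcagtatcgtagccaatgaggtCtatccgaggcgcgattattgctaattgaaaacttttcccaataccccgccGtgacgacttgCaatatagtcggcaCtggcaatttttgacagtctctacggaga
RNU4-2: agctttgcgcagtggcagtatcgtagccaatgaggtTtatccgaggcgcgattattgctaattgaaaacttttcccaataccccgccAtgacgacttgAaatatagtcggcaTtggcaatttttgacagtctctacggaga
RNU4-1 was listed at 0 and 0 TPM with bortezomib and at 32.8 and 25.8 TPM with bortezomib plus FeAc (adjusted limma p of 0.0197, n = 2 per group, both samples with FeAc higher). RNU4-2 was listed at 0 and 0 TPM and at 131.2 and 25.8 TPM (adjusted p of 0.386). Cells need U4 to splice, and a short RNA listed at 0 can be a failed estimate, so no fold change is given. In the other groups RNU4-1 was at 83.7 and 0 TPM with vehicle and at 0 and 0 TPM with FeAc, so that samples of 1 group ran from 0 to above the level of both samples with FeAc and bortezomib. The adjusted p of RNU4-1 did not pass when any 1 of the 4 samples was left out, ranging from 0.274 to 0.393, and was 1 when all 4 groups shared 1 fit.

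Some other short non-coding RNAs were higher in both samples with FeAc, and other classes were near the shares of all genes. Of 38 small nucleolar RNA genes tested, 4 were higher (10.5%) and 1 lower without overlap, and of 81 genes of the miscellaneous RNA type 8 were higher (9.88%) and 10 lower (12.3%), beside 8.86% and 13.1% of all genes. The 8 small nuclear RNA genes that were higher without overlap, of 30 tested, included near-identical copies and genes that reached the minimum level only through the samples with FeAc, so their number is no measure of the class. RNU1-2 and RNU1-28P, copies of the U1 RNA with identical sequence, had the same values, 0 and 1.5 TPM with bortezomib and 57.2 and 46.5 TPM with bortezomib plus FeAc, so they are 1 measurement. RMRP, the RNA of the RNase MRP complex, was listed under 2 identifiers, at 13.3 and 11.2 TPM with bortezomib and at 105.8 and 40.8 TPM with FeAc added under the first, and at 0 and 0 TPM and at 61.2 and 10.3 TPM under the second. RPPH1, the RNA of RNase P, was at 0 and 2.20 TPM and at 18.2 and 8.25 TPM, and RN7SK, which holds back transcription elongation, was at 53.4 and 49.1 TPM and at 71.6 and 97.4 TPM. Small RNA classes together took 0.150% and 0.143% of the TPM with bortezomib and 0.310% and 0.292% with FeAc added. This sum includes RNAs listed above 0 in 1 of the 4 samples only. In replicate 2 of bortezomib plus FeAc these included AP000944.4 at 352.1, RNU5E-1 at 249.45 and SNORA63B at 143.7 TPM. In its replicate 1 they included RNU4ATAC at 114.9 TPM. The sum is thus no measure of the class, and the part of RNA selection in these values was not tested.

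Genes at the head of the lower side were mostly of little-known function. AL034430.2, listed as protein coding, was at 144.8 and 107.5 TPM with bortezomib and at 35.3 and 44.2 TPM with bortezomib plus FeAc, a log2 difference of -1.64 (SE 0.21, unadjusted limma p of 0.000327). NMBR, the receptor of neuromedin B, was at 9.67 and 12.2 TPM and, with FeAc, at 3.68 and 4.05 TPM, a difference of -1.29 (SE 0.22). The vehicle samples of NMBR, at 23.3 and 3.44 TPM, spanned all of these values. GTF2IRD2B was at 16.1 and 18.2 TPM and at 8.80 and 8.01 TPM, a difference of -0.95 (SE 0.18), while its near-identical copy GTF2IRD2 was at 1.86 and 2.29 TPM and at 3.15 and 5.32 TPM, so reads may be split between them. SV2C, a vesicle protein, and ZNF480, a zinc finger protein, differed by -0.61 and -0.82. AC005045.1, a short non-coding RNA gene, was at 15.6 and 39.7 TPM with bortezomib and listed at 0 in both samples with FeAc. It was also listed at 0 in the vehicle samples and in those given FeAc without bortezomib.

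The difference made by FeAc was set against that measured without bortezomib, from the vehicle and FeAc samples, which share no sample with the present comparison. Over all 13865 genes the log2 differences of the 2 comparisons were almost uncorrelated across genes (Pearson's r = 0.046, Spearman's rho = 0.025), and genes are not independent replicates. Over the 22 sterol synthesis genes r was 0.886 and rho 0.877, and both FeAc samples lay above both vehicle samples in 19 of them. The difference, taken with its sign, was lower with bortezomib than without it in 20 of the 22, and also in 65.5% of all genes. This count includes genes that FeAc lowered more with bortezomib, so it does not measure a smaller effect. The median difference over all genes was -0.040 with bortezomib and 0.082 without it. The median interaction was -0.12 over all genes, -0.035 for the mevalonate pathway and -0.32 from squalene to cholesterol. FDFT1 had the smallest p for this gap, with a log2 difference of 0.85 with bortezomib and 1.47 without it, an interaction of -0.61 (95% interval -1.07 to -0.15, unadjusted limma p of 0.0156), which did not pass adjustment over the 14812 genes tested. For INSIG1 the differences were 1.36 and 1.75, with an interaction of -0.39 (unadjusted p of 0.168).

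TFRC differed by -1.14 with bortezomib and by -1.13 without it, and the interaction was -0.012 (95% interval -0.82 to 0.80, unadjusted limma p of 0.973). FOS differed by -1.73 with bortezomib and -2.35 without it, and DUSP1 by -1.05 and -1.73, with interactions of 0.61 and 0.68 at unadjusted p of 0.428 and 0.115. ACO1 differed by 0.23 and 0.43, CYBRD1 by 0.30 and -0.033, and MYLIP by -0.89 and -0.80. The list of LXR targets and sterol efflux that holds MYLIP had a median of -0.19 with bortezomib and 0.093 without it. Over all genes these medians were -0.040 and 0.082. In that list NR1H3 differed by -0.48 and -0.59, and SOAT1 by -0.28 and 0.20. ABCG1 differed by -1.22 with bortezomib, where it started from 4.36 and 4.29 TPM, and by -0.43 without it, where it started from 1.04 and 2.13 TPM, and the interaction was -0.79 (95% interval -1.82 to 0.24, unadjusted p of 0.115). These intervals are wide, so that a p above the threshold does not show equal effects. Over all genes, 1 interaction had an adjusted limma p below 0.05 (0.00675% of genes) and 348 had an unadjusted p below it (2.35%), and the adjusted count was 5 to 18 when any 1 of the 8 samples was left out.

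**Figure D5:**
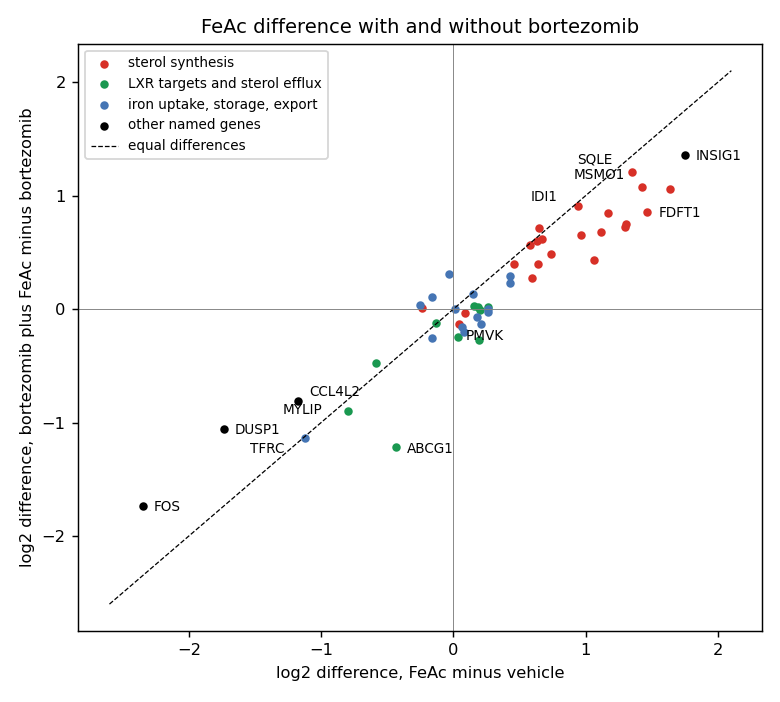
Fitted log2 difference of FeAc without bortezomib (x axis, FeAc minus vehicle) and with it (y axis, bortezomib plus FeAc minus bortezomib), 1 point per gene, for the sterol synthesis, LXR and iron lists and 4 other named genes, with a dashed line where both are equal. Of the 22 sterol synthesis genes 20 lie below the line, TFRC lies on it, and ABCG1 lies below it.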

How the data were processed

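The comparison used RNA-seq of MM.1S cells at 12 h, with 2 samples given bortezomib and 2 given bortezomib plus FeAc, and took vehicle and FeAc samples in for the interaction alone. Groups follow the labels. Total RNA was isolated with TRIzol and made into TruSeq libraries. The authors deposited 2 tables, read as TPM because each sample sums to 994968 to 996780. The tables name no unit and also hold the authors' fold changes, p-values, calls and group means, which were not used. Build GRCh38.p13 and the tools HISAT2, StringTie, RSEM, edgeR and DESeq2 appear in the processing notes of the submitters. Their versions, roles and filters are not stated there. TPM keep no counts, so depth is unknown and no counting interval can be given. Levels estimated for RNAs shorter than a sequenced fragment are unstable.

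limma-trend (limma 3.58.1, R 4.3.3) was run on log2(TPM + 1) for genes whose mean reached 1 TPM under one treatment or the other. Fold changes on this scale understate those of low genes. P-values are two-sided with Benjamini-Hochberg adjustment, and a call needs an adjusted p below 0.05 with a change beyond 1.5-fold. The fit was run on simulated data with normal noise of equal spread in both groups. The real groups differed in spread, so that run does not show how the fit behaves on them. Positions and gene types come from GENCODE release 29, which holds 96.3% of the gene identifiers. Named genes are TFRC, INSIG1 and ABCG1, up to 15 genes per direction by call and then by unadjusted p for genes averaging 5 TPM or more without overlap, and per list up to 4 members with the smallest p and up to 2 that moved the other way. Genes named beyond this rule, for example SDC1, HSPA1B, LSS and DHCR7, were chosen after their values were seen. The members and the 38 lists were chosen with earlier results of these data known. Lists are described by counts and medians. Alternatives were a pseudocount of 0.1, no filter, a minimum mean of 5 TPM, 1 fit over all 4 groups, a block for the replicate number, scaling by the median of ratios, rescaling without mitochondrially encoded genes, each sample left out and, chosen after seeing the data, protein-coding genes only. Sequences are from RefSeq (GRCh38.p14) and GENCODE 29. Some genes are not reported here.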

Additional observations from a re-analysis of the deposited data

Results flagged for a closer look

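SNORD22 (ENSG00000278527), a small nucleolar RNA, was flagged because the FeAc difference with bortezomib and that without it differed in a test of the difference itself. The interaction was -4.89 on the log2 scale (SE 0.36, adjusted limma p of 0.0167). SNORD22 was listed at 24.6 and 33.6 TPM in the FeAc samples and at 0 in the other 6 samples, so the flag rests on 2 libraries and on a level of 0 in the groups with bortezomib.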

How the results depend on the processing

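The 55 genes followed here are those given with a log2 difference, together with RNU4-1, RNU4-2, RNU1-2, RNU1-28P, AC005045.1 and both RMRP identifiers, and each kept its direction under every alternative that could be run for it. RNU4-1 was the 1 gene called higher, and 0 genes were called higher without a filter, at a minimum mean of 5 TPM, with all 4 groups in 1 fit, over protein-coding genes only and without any 1 sample (0 to 0). Its adjusted p ranged from 0.0221 to 1 over the alternatives. With all 4 groups in 1 fit AC005045.1 was called lower (adjusted limma p of 0.0433). The unadjusted counts of 143 higher and 111 lower genes were 47 and 34 at the 5 TPM minimum, 65 and 57 over protein-coding genes, and 125 to 478 and 191 to 667 without 1 sample. The counts without overlap of 1229 higher and 1820 lower were 2585 and 3089 with no filter, 665 and 1197 at the 5 TPM minimum, 1172 lower over protein-coding genes, and 2666 to 6255 and 3770 to 7222 without 1 sample, where a group of 1 overlaps less by construction. The median difference without 1 sample ran from 0.37 to 0.82 for the mevalonate pathway and from 0.36 to 0.97 from squalene to cholesterol. For the list of LXR targets and sterol efflux it ran from -0.36 to -0.092, and it was -0.063 at the 5 TPM minimum. The lower ends of the sterol ranges came without replicate 2 of bortezomib plus FeAc. For the interaction, 0 genes passed with a pseudocount of 0.1, at the 5 TPM minimum and with the replicate block, and 5 to 18 without 1 sample. The causes of these moves were not tested. With the replicate number as a block 177 genes were higher and 139 lower at the unadjusted threshold. The deviations of samples with 1 number correlated at 0.0642 over all genes tested and 2 pairs. Several gene lists were still ordered alike in both pairs, such as mitochondrially encoded mRNAs and heat shock chaperones. What samples with 1 number share beyond that number was not tested. A lone sample left in a group is assumed to vary like the other group. With 2 samples per group and no depth in TPM, genes of low level and short RNAs are the least certain, and the protein-coding alternative was chosen after seeing the data.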
